A study of Rattus norvegicus with 19 samples.

Results

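Potassium channel genes were taken as the genes whose symbol starts with Kcn, the root that rat nomenclature uses for pore-forming and accessory subunits of potassium channels. On the array 75 of the 14217 genes with a symbol met this rule, and they were covered by 126 probe sets, each a group of short probes against 1 transcript. Where a gene had several, the one with the highest mean over the 19 arrays represented it, and other probe sets of that gene are given where they behaved differently. RNA of dissected supraoptic (SON) and paraventricular (PVN) nuclei was hybridised to Affymetrix rat genome arrays, and the design asks what differs between hypertensive and normotensive animals in each nucleus. There were 4 arrays of SON from spontaneously hypertensive rats (SHR), 5 of SON from Wistar Kyoto rats (WKY), 5 of PVN from SHR and 5 of PVN from WKY. All animals were untreated and labelled as 12 weeks old, and the methods describe males. SHR is an inbred strain in which high blood pressure develops with age, and WKY is an inbred normotensive strain used as its control, so genotype and blood pressure cannot be told apart in these groups. RNA came from pooled nuclei, and the SHR SON group as analysed here had 1 array fewer than the others.

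Potassium channels let potassium leave the cell and so pull the membrane potential down. Voltage-gated channels repolarise the action potential and set the interval between spikes, calcium- and sodium-activated channels produce the hyperpolarisations that follow spikes, inward rectifiers and two-pore-domain channels hold the resting potential, and glial inward rectifiers take up potassium released by neurones. In magnocellular neurones of the SON and PVN, which release vasopressin and oxytocin from the posterior pituitary, such currents shape the firing patterns that govern hormone release, and in parvocellular neurones of the PVN they shape the output to brainstem and spinal sympathetic neurones.

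Values below are log2 signals of arrays scaled to a common median, so that a difference of 1 is a 2-fold difference, and a level on 1 probe set cannot be set against that on another. Array medians before scaling ranged from 35.9 to 46.5, and correlations between arrays ranged from 0.897 to 0.974. A probe set was tested where at least 1 group mean reached the median of all probe sets (log2 5.32 for the strains in the PVN and for the nuclei, 5.31 for the strains in the SON). Of the 75 genes, 38 were tested in at least 1 comparison and 37 in none. A gene is said to pass where the adjusted p of limma, over all probe sets tested, was below 0.05. The lowest correlations with arrays of the same group were those of PVN SHR array 4 (mean 0.947) and of SON WKY array 3 (mean 0.929), and results that rest on them are also given without them. Neuronal markers were well represented in both nuclei, the 10 listed genes averaging 9.03 to 9.24 in SON SHR, 9.21 to 9.40 in SON WKY, 9.01 to 9.47 in PVN SHR and 9.22 to 9.35 in PVN WKY.

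Few potassium channel genes separated the strains. On the representative probe sets those that passed, 3 genes, were lower in SHR, while a second probe set of Kcnd3 passed as higher in SHR in both nuclei. Kcnip3 passed in both nuclei. This gene encodes a calcium-binding protein, also known as DREAM or calsenilin, that serves as an accessory subunit of voltage-gated A-type channels and as a transcriptional repressor. Kcna2, a Shaker-type delayed rectifier subunit found mainly in axons, passed in the SON, and Kcnt1, the sodium-activated channel known as Slack, passed in the PVN. Reference promoter sequences of these 3 genes are shown because they are the genes whose representative probe sets passed between strains. They are RefSeq windows of the GRCr8 assembly, 250 bases before to 50 bases after an annotated start, written 5′ to 3′ on the strand of the gene, and they are not sequences of SHR or WKY. Capitals mark matches to the GC box (GGGCGG, or CCGCCC on the other strand) and to the cyclic AMP response element half-site (TGACG, or CGTCA). The Kcnip3 window is chr3:135195361-135195660 (minus strand), the Kcna2 window chr2:197393280-197393579 (plus strand), and Kcnt1 has 2 windows, chr3:29081089-29081388 and chr3:29095846-29096145 (plus strand).
Kcnip3: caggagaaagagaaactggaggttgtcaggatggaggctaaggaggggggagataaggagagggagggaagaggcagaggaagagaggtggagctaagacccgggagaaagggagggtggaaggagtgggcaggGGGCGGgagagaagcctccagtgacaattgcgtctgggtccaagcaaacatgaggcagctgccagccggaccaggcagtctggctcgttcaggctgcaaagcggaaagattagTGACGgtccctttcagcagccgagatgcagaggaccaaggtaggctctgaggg
Kcna2: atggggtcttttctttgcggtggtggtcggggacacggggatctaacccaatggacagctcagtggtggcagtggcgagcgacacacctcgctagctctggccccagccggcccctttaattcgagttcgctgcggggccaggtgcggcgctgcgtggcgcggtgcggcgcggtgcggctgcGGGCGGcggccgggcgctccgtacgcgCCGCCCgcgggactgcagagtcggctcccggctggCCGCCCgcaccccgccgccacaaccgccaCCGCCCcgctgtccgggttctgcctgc
Kcnt1, first start: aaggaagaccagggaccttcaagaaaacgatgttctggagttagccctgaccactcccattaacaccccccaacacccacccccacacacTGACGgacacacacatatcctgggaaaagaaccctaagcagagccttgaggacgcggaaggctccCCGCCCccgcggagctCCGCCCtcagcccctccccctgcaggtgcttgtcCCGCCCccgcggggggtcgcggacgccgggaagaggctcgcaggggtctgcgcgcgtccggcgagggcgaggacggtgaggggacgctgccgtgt
Kcnt1, second start: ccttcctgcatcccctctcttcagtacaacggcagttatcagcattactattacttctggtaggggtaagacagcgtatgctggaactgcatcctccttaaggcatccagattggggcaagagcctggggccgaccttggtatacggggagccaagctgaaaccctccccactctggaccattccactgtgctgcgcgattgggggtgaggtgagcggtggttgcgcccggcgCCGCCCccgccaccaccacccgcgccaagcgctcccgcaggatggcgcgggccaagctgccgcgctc
The GC box had at least 1 match in all 4 windows, with 4 matches in Kcna2 and 3 at the first start of Kcnt1, and it occurs in 33.1% of the 33469 promoter windows of this length. The half-site was matched in Kcnip3 and at the first start of Kcnt1, against 21.2% of all windows. A TATA box (TATAAA, 14.2% of all windows) and an E box (CACGTG, 6.42%) were searched on both strands and had 0 matches. A match of letters is a description of the reference sequence and not a binding site.

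In the SON, 2 of the 36 tested potassium channel genes were lower in SHR and 0 higher. That is 5.56% of the genes tested, where 3.62% of all 16190 probe sets passed, 2.33% lower in SHR and 1.29% higher. Of the 36 differences 24 were below 0, where 9492 of the 16190 over all probe sets were. The median of the 36 was -0.22, where the median over all probe sets was -0.04. At an unadjusted p below 0.05, 14 genes were lower in SHR (38.9%, against 12.9% of all probe sets) and 1, Kcnip2, was higher (6.47% of all probe sets). Here and below, each gene is its brightest probe set, while the background is every tested probe set, including those without a symbol. The shares are therefore not of like sets. For 8 genes every SHR array lay below every WKY array (22.2%, against 6.94% of all probe sets), namely Kcna2, Kcnc4, Kcnd2, Kcnh2, Kcnip1, Kcnip3, Kcnmb4 and Kcnt1. No gene reached 2-fold, where 0.766% of all probe sets did so and passed.

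In the PVN, 2 of the 37 tested genes were lower in SHR and 0 higher, with Kcnip3 past 2-fold. That is 5.41%, where 2.36% of all 16104 probe sets passed, 1.22% lower in SHR, 1.14% higher and 0.627% also past 2-fold. Of the 37 differences 28 were below 0, where 9389 of the 16104 over all probe sets were. The median of the 37 was -0.09, against -0.04 over all probe sets. At an unadjusted p below 0.05 there were 6 genes lower in SHR (16.2%, against 8.13% of all probe sets) and 1 higher, Kcnk13 (5.38% of all probe sets). Groups did not overlap for 4 genes lower in SHR (10.8%, against 2.52% of all probe sets), namely Kcnh1, Kcnip3, Kcnma1 and Kcnt1. In the 35 genes tested in both nuclei the sign was the same in 27, of which 21 were lower in SHR (77.1% of the same sign, against 63.7% of 15200 probe sets).

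**Figure D1:**
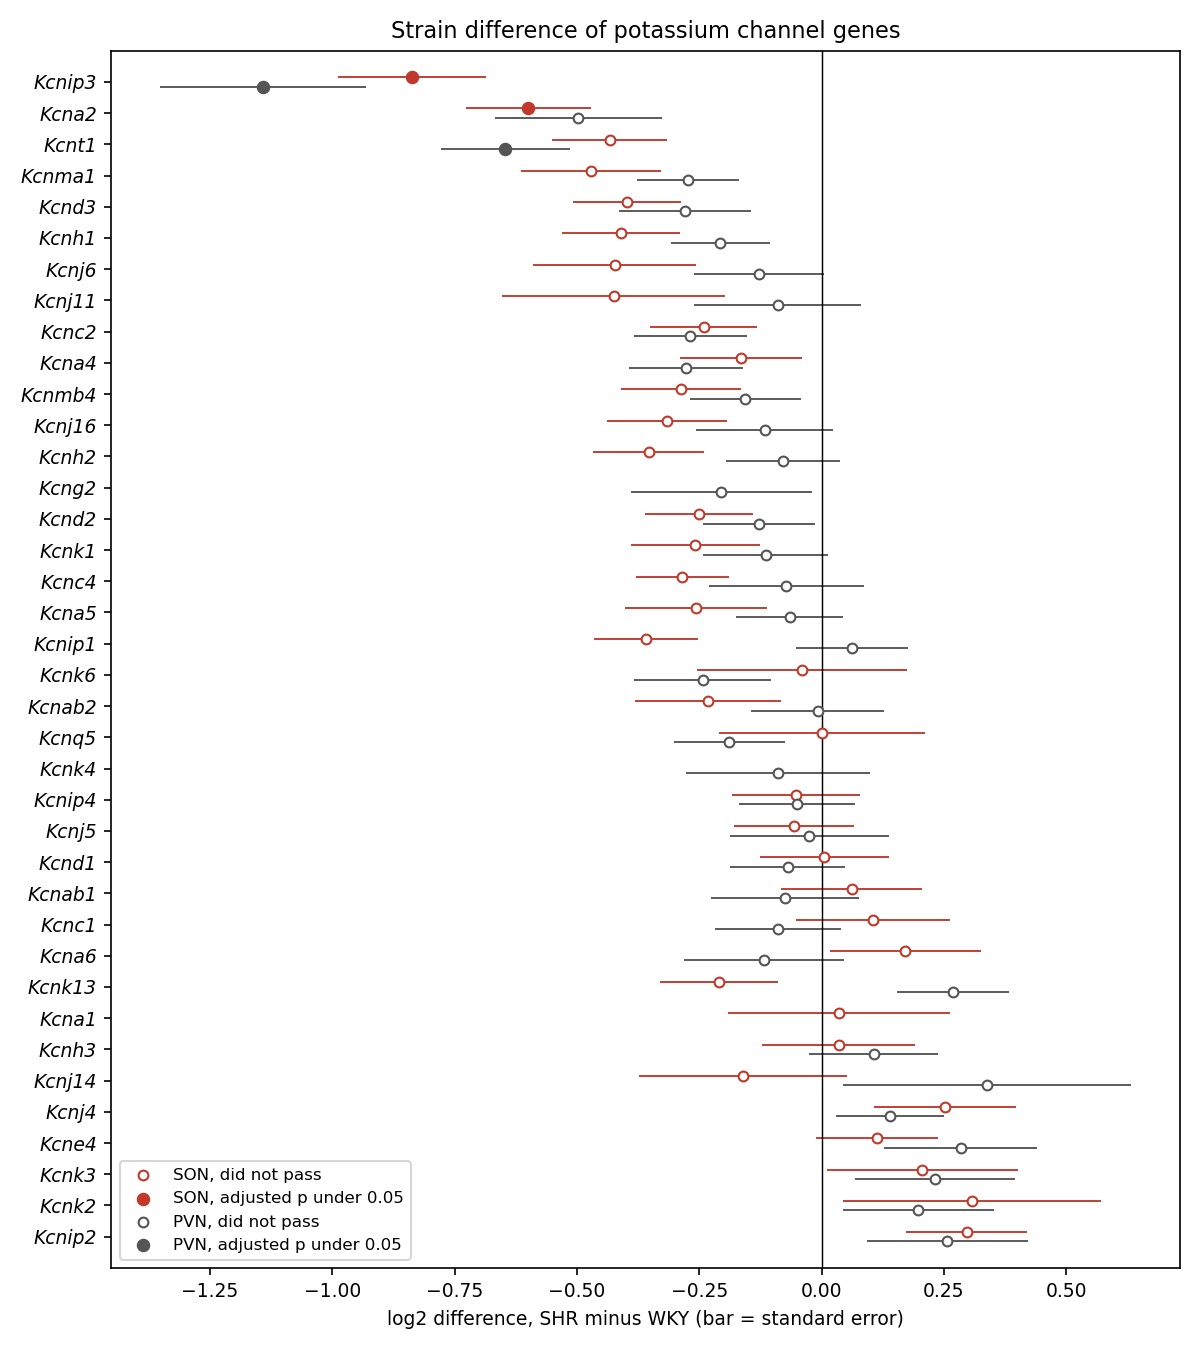
Difference between strains (log2, SHR minus WKY, x axis) of each tested potassium channel gene (y axis) in the SON and in the PVN, with standard errors as bars and filled points where the adjusted p was below 0.05. The filled points, Kcnip3 in both nuclei, Kcna2 in the SON and Kcnt1 in the PVN, all lie left of 0, and Kcnip3 in the PVN lies farthest left at -1.14.

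Kcnip3 was less abundant in SHR compared to WKY in both nuclei. In the SON its log2 signal was 6.12, 6.11, 6.19 and 6.30 on the SHR arrays, against 7.15, 7.52, 6.73, 6.88 and 6.81 on the WKY arrays. Every SHR array was below every WKY array, and the SHR arrays lay closer together (SD 0.09) than the WKY arrays (SD 0.32). The difference was -0.84 (SE 0.15, adjusted p = 0.0100), a 1.79-fold lower signal. In the PVN the SHR arrays read 7.26, 6.76, 6.66, 5.71 and 6.33, and the WKY arrays 7.53, 7.65, 7.93, 7.59 and 7.74. The groups did not overlap here either, although array 4 of SHR stood below the other SHR arrays. The difference was -1.14 (SE 0.21, adjusted p = 0.00595), a 2.21-fold lower signal, and it was -0.93 (adjusted p = 0.00387) without that array. Kcnip3 did not pass with the methods' t-test (adjusted p = 0.0980 in the SON and 0.225 in the PVN) or when no filter was set (adjusted p = 0.0652 in the SON and 0.0958 in the PVN). The other Kcnip3 probe set, 1387421_at, was not tested because its group means, 1.94 to 2.49, lay close to the floor of 1.91.

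Kcna2 was less abundant in the SON of SHR, where its signals were 7.18, 7.23, 7.43 and 7.23, against 8.01, 8.14, 7.83, 7.85 and 7.51 in WKY. The groups did not overlap, with WKY array 5 the nearest to SHR. The difference was -0.60 (SE 0.13, adjusted p = 0.0240), and leaving out any of SON SHR arrays 1, 2 or 4 or SON WKY arrays 1, 2 or 4 took the adjusted p above 0.05, to between 0.0554 and 0.0707, with differences of -0.53 to -0.60. It also did not pass with the methods' t-test (adjusted p = 0.0902) or when no filter was set (adjusted p = 0.0863). In the PVN the signals were 7.92, 7.44, 7.66, 6.91 and 7.04 in SHR and 7.79, 8.09, 8.01, 7.89 and 7.67 in WKY. SHR arrays 4 and 5 were low there and array 1 lay among the WKY arrays. The PVN difference of -0.50 (SE 0.17) did not pass (adjusted p = 0.180).

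Kcnt1 on probe set 1379147_at was less abundant in the PVN of SHR, with 5.60, 5.39, 5.96, 5.80 and 6.03, against 6.31, 6.45, 6.47, 6.58 and 6.20 in WKY. The groups did not overlap, and the difference was -0.65 (SE 0.13, adjusted p = 0.0128), which did not pass with the methods' t-test (adjusted p = 0.138) or without the filter (adjusted p = 0.0744). In the SON the arrays read 5.68, 5.88, 5.66 and 6.02 in SHR and 6.49, 6.23, 6.16, 6.26 and 6.07 in WKY. All SHR arrays were again the lower ones, but the difference of -0.43 (SE 0.12) did not pass (adjusted p = 0.0662). Both other tested Kcnt1 probe sets gave differences near 0 that did not pass, -0.17 in the PVN and 0.01 in the SON for 1369222_at, and 0.01 in the PVN and -0.09 in the SON for 1395102_at.

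**Figure D2:**
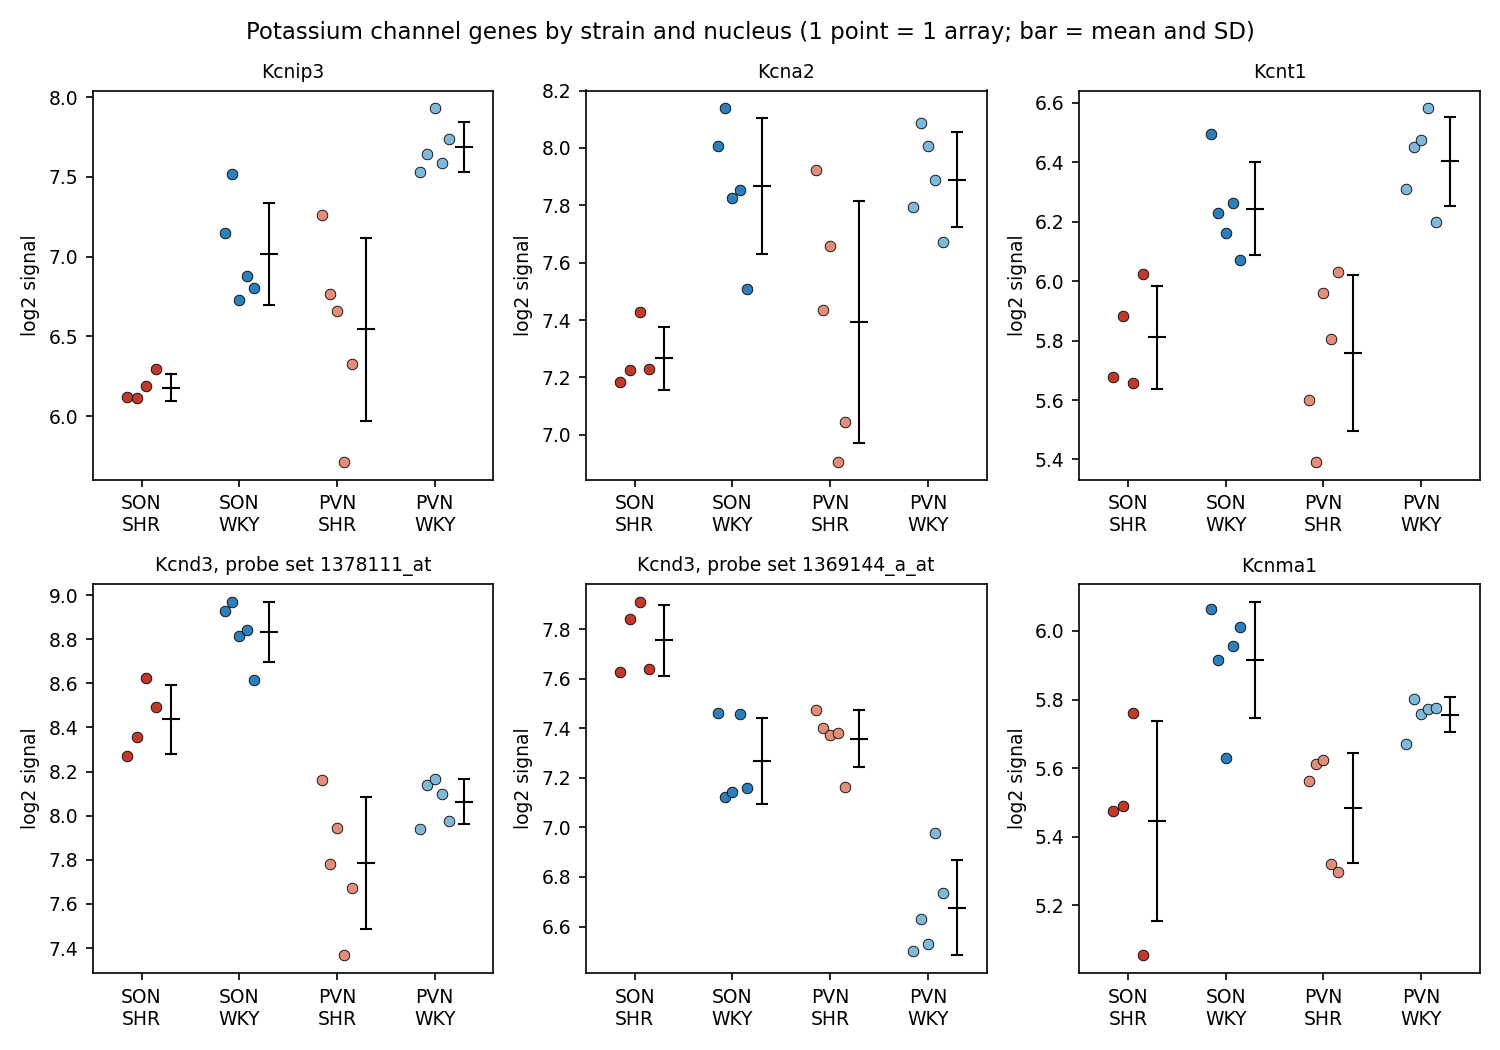
Log2 signal (y axis) of 6 probe sets on each array, by group (x axis), with the mean and SD beside the points. Kcnip3 and Kcnt1, each on its representative probe set, are lower in SHR in both nuclei without overlap, and Kcnt1 passed in the PVN only. The other tested Kcnt1 probe sets, which did not pass, are not shown. The panels of Kcnd3 show probe sets with opposite strain differences.

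The probe sets of Kcnd3 disagreed between strains. Kcnd3 is a pore-forming subunit of A-type channels, which open briefly below spike threshold and delay the next action potential. The representative probe set, 1378111_at, read 8.27, 8.36, 8.63 and 8.49 in the SON of SHR and 8.93, 8.97, 8.81, 8.84 and 8.62 in the SON of WKY. Only SHR array 3 reached into the WKY range, and the difference was -0.40 (SE 0.11, adjusted p = 0.0721). On 1369144_a_at, a probe set whose suffix marks possible binding of several transcripts of the gene, the SON arrays read 7.63, 7.84, 7.91 and 7.64 in SHR and 7.46, 7.12, 7.14, 7.46 and 7.16 in WKY. There every SHR array was the higher one, with a difference of 0.49 (SE 0.12, adjusted p = 0.0408). Leaving out any SON array except WKY array 1 or 4 took its adjusted p above 0.05, to between 0.0553 and 0.131, with differences of 0.43 to 0.53, as did the methods' t-test (0.0899), no filter (0.0997) and the replicate number as a block (0.148). In the PVN this probe set read 7.47, 7.40, 7.37, 7.38 and 7.16 in SHR and 6.50, 6.63, 6.53, 6.98 and 6.74 in WKY, again without overlap, and the difference of 0.68 (SE 0.11) passed with an adjusted p of 0.00265. The representative probe set in the PVN differed by -0.28 (SE 0.13, adjusted p = 0.384). The direction of a strain difference in Kcnd3 RNA therefore depended on the probe set, and the cause was not tested.

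Among the other voltage-gated subunits the strain differences were smaller. Kcnh1, the ether-a-go-go channel, was -0.41 (adjusted p = 0.0856) in the SON and -0.21 (adjusted p = 0.398) in the PVN, with groups that overlapped in the SON and not in the PVN. Its relative Kcnh2, the ERG channel, was -0.35 (adjusted p = 0.109) in the SON, where SHR arrays read 5.35, 5.75, 5.68 and 5.59, all below the WKY arrays at 5.91, 5.82, 6.13, 5.82 and 6.04. Kcnc4, a Shaw-type subunit of fast-repolarising channels, was -0.28 (adjusted p = 0.120) in the SON, and the A-type subunit Kcnd2 was -0.25 (adjusted p = 0.240), both without overlap. Of the 15 alpha subunits tested in each nucleus 1 passed in the SON (Kcna2) and 0 in the PVN. At an unadjusted p below 0.05, 7 were lower and 0 higher in the SON of SHR (46.7% lower, against 12.9% of all probe sets). In the PVN 3 were lower and 0 higher (20% lower, against 8.13% of all probe sets). Of the 7 tested accessory subunits Kcnip3 alone passed in each nucleus. Its relatives did not pass: Kcnip1 was -0.36 in the SON (adjusted p = 0.0874), Kcnip2 was 0.30 in the SON and 0.26 in the PVN, and Kcnip4 was -0.05 in both.

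The large-conductance calcium-activated (BK) channel has a pore subunit encoded by Kcnma1 and a neuronal accessory subunit encoded by Kcnmb4. Kcnma1 read 5.48, 5.49, 5.76 and 5.05 in the SON of SHR and 6.06, 5.92, 5.63, 5.96 and 6.01 in the SON of WKY. SHR array 3 overlapped with WKY array 3, and the difference of -0.47 (SE 0.14) did not pass (adjusted p = 0.0935). In the PVN its signals were 5.56, 5.61, 5.62, 5.32 and 5.30 in SHR and 5.67, 5.80, 5.76, 5.77 and 5.77 in WKY. The groups did not overlap, by a margin smaller than the spread within SHR, and the difference was -0.27 (SE 0.10, adjusted p = 0.246). Kcnmb4 was -0.29 in the SON (adjusted p = 0.223, groups not overlapping) and -0.16 in the PVN (adjusted p = 0.618).

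No inward rectifier or two-pore-domain gene passed between strains, of 6 and 5 tested in the SON and 6 and 6 in the PVN. Kcnj16, an inward rectifier subunit that pairs with the glial channel Kcnj10, was -0.32 in the SON (adjusted p = 0.178), and Kcnj6, a G protein-gated inward rectifier, was -0.42 (adjusted p = 0.186). Kcnj11, the pore of the ATP-sensitive channel, was -0.42 in the SON and -0.09 in the PVN. Kcnk13, a halothane-inhibited leak channel, was 0.27 in the PVN (adjusted p = 0.310) and -0.21 in the SON. Kcnk2 (0.31 and 0.20) and Kcnk3 (0.21 and 0.23), leak channels gated by stretch and by acid, had positive differences in the SON and in the PVN that did not pass.

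Genes outside the Kcn symbols whose products assemble with these channels were followed as a list of 18, of which 16 had a probe set. In the SON 2 of 12 tested passed, both lower in SHR: Dpp6 at -0.42 (adjusted p = 0.0395), which encodes an accessory subunit of A-type channels, and Adam22 at -0.48 (adjusted p = 0.0184), a membrane protein found in complexes of Shaker-type channels. Of all probe sets 3.62% passed in the SON, 2.33% lower in SHR, and 2.36% passed in the PVN. The calls of partner genes were not followed with arrays left out or in other settings. In the PVN 0 of 12 passed, with Dpp6 at -0.10 and Adam22 at -0.32. Between strains 0 of the neuronal markers passed, with medians of -0.22 in the SON (9 tested) and -0.19 in the PVN (10 tested). Of 7 tested genes of magnocellular neurones, 3 were lower in the SON of SHR (Chga, Chgb and Vgf) and 1 in the PVN (Chgb), with medians of -0.40 in the SON and -0.29 in the PVN. The other 4 did not pass in the SON, with Pdyn at -0.40, Scg2 at -0.15, and the hormone genes Avp at -0.12 and Oxt at -0.03. In the PVN Avp (-0.29) and Oxt (-0.25) did not pass either. The mean of that list was 10.17 to 10.30 in SON SHR, 10.39 to 10.78 in SON WKY, 10.12 to 10.55 in PVN SHR and 10.55 to 10.65 in PVN WKY, and its part in the lower potassium channel signals was not tested. Meningeal and fibroblast markers were higher in the SON of SHR for 2 of 8 (median 0.53) and ependymal markers higher in the PVN of SHR for 2 of 5 (median 0.47), and their part was not tested either. In such bulk samples fewer cells of a type and less RNA per cell cannot be told apart.

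No potassium channel gene had a strain difference that passed as different between the nuclei. In limma's test of the interaction 0 of 38 genes passed, where 14 of 17095 probe sets did (0.0819%), and 2 genes had an unadjusted p below 0.05, where 6.85% of all probe sets did. For Kcnk13 the strain differences of SON and PVN were -0.48 apart (SON minus PVN, SE 0.16, adjusted p = 0.549), and for Kcnip1 -0.42 apart (SE 0.15, adjusted p = 0.563). The interaction of Kcnip3 was 0.30 (SE 0.29), of Kcna2 -0.10 and of Kcnt1 0.21 (SE 0.18).

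The nuclei differed more than the strains. In SHR 14 of 38 tested genes passed between SON and PVN, 5 higher and 9 lower in the SON, and in WKY 15 passed, 6 higher and 9 lower. That is 36.8% in SHR and 39.5% in WKY, where 29.4% of all probe sets passed in SHR and 26.9% in WKY. These shares were near the background and are given as counts. Higher in the SON were 13.7% of all probe sets in SHR and 13.2% in WKY, and lower were 15.7% in SHR and 13.7% in WKY. Passing in both strains were 9 genes, all with the same sign. Of all 17095 probe sets 3224 passed in both, 3219 of them with the same sign. Kcnmb4, Kcnh1, Kcnd3, Kcnip4 and Kcnd1 were more abundant in the SON, and Kcnc1, Kcng2, Kcnj6 and Kcnk13 less abundant. Passing in SHR alone were 5 genes and in WKY alone 6, where 1809 of all probe sets passed in SHR alone and 1374 in WKY alone. Over all 38 genes the sign was the same in both strains for 32 (84.2%, against 79.2% of all probe sets). Past 2-fold and passing were 0 genes in SHR and 2 in WKY, Kcnmb4 and Kcna1, where 5.65% of all probe sets were in SHR and 4.91% in WKY. Kcna1 reached the filter only through its SON means (5.71 in SHR and 5.67 in WKY, against 4.87 and 4.67 in the PVN). Kcng2 and Kcnk4 reached it only through their PVN means. For these genes the filter thus selected on the same contrast that was tested.

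**Figure D3:**
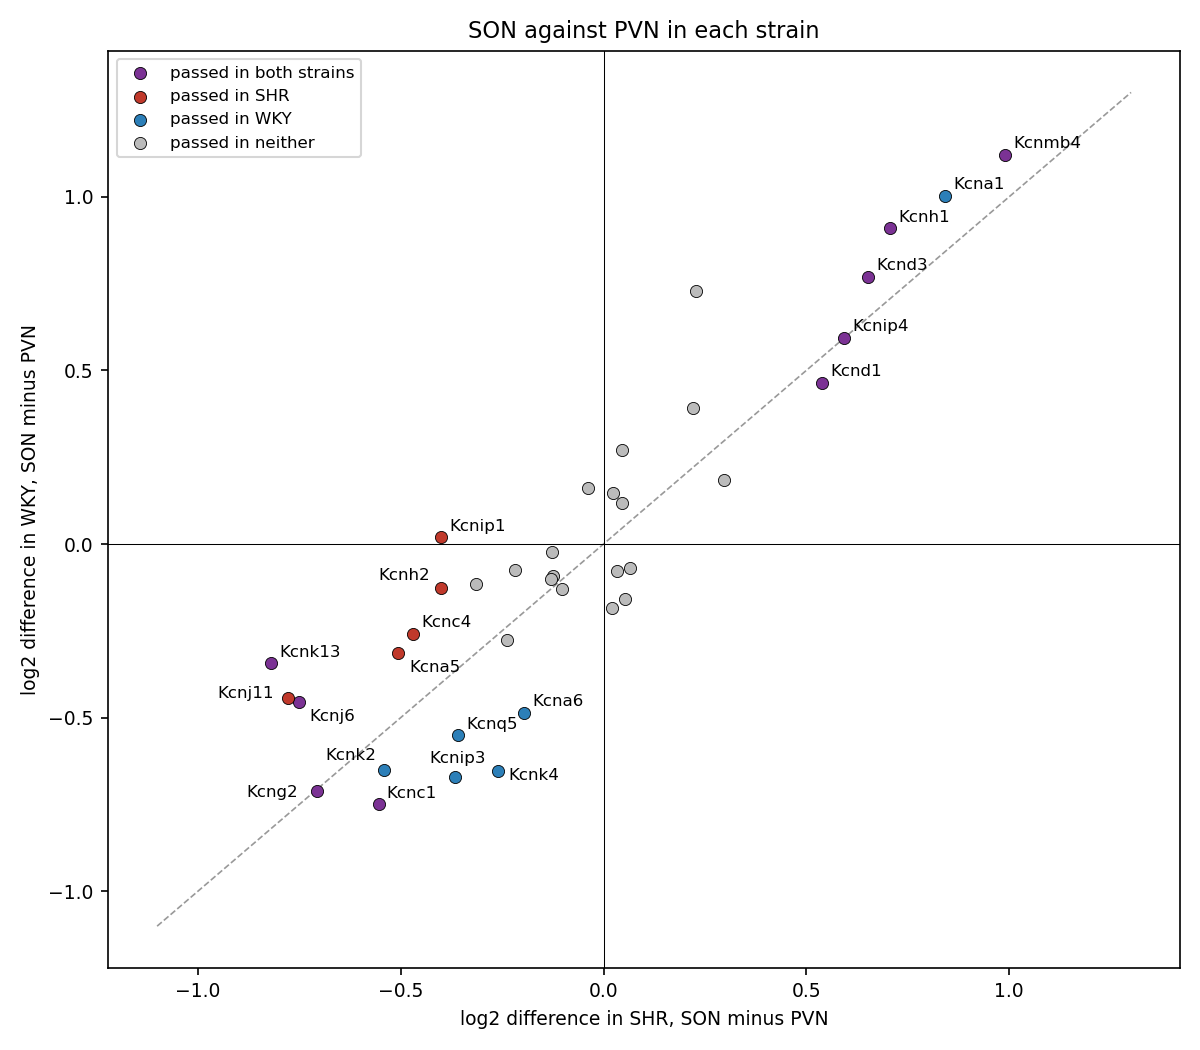
Log2 difference between nuclei (SON minus PVN) of the 38 tested potassium channel genes in SHR (x axis) and in WKY (y axis), coloured by the strain in which the gene passed, with a dashed line where both are equal. Kcnmb4, Kcna1, Kcnh1, Kcnd3, Kcnip4 and Kcnd1 lie at the upper right, and Kcnip1 is lower in the SON of SHR (-0.40) while it lies at 0.02 in WKY.

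Among the 38 tested genes, Kcnmb4, the BK accessory subunit, had the largest difference between nuclei in either strain, although some genes below the filter had larger ones, among them Kcnn3 (1.55 in WKY) and Kcnq1 (-1.15 in SHR). In SHR its signals were 9.37, 9.24, 9.36 and 9.12 in the SON and 8.42, 8.43, 8.21, 8.03 and 8.31 in the PVN. In WKY they were 9.53, 9.51, 9.42, 9.93 and 9.40 in the SON and 8.27, 8.56, 8.60, 8.39 and 8.36 in the PVN. The nuclei did not overlap in either strain, and the SON signal was 1.99-fold higher in SHR (0.99, SE 0.12, adjusted p = 2.11e-06) and 2.17-fold higher in WKY (1.12, SE 0.11, adjusted p = 1.88e-07). Kcnma1, the pore subunit of the same channel, did not pass (-0.04 in SHR and 0.16 in WKY) on its representative probe set. Its other probe sets lay below the filter, were not tested, and disagreed in SHR. On 1370472_a_at the SHR arrays read 3.49 to 4.04 in the SON and 1.91 to 2.95 in the PVN. On 1369334_at they read 2.39 to 4.85 in the SON and 4.46 to 5.15 in the PVN. In WKY the nuclei overlapped on both.

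The A-type channel genes Kcnd3, Kcnd1 and Kcnip4 were more abundant in the SON of both strains. Kcnd3 differed by 0.65 (SE 0.13, adjusted p = 7.27e-04) in SHR and 0.77 (SE 0.12, adjusted p = 7.75e-05) in WKY on its representative probe set, and by 0.40 (adjusted p = 0.0131) in SHR and 0.59 (adjusted p = 3.46e-04) in WKY on 1369144_a_at. Both probe sets, which disagreed between strains, thus had the same sign between nuclei. Kcnd1 read 6.86, 7.31, 7.34 and 7.29 in the SON and 6.57, 6.77, 6.93, 6.63 and 6.39 in the PVN of SHR, a difference of 0.54 (SE 0.13, adjusted p = 0.00310) with 1 SON array inside the PVN range. In WKY it was 0.46 (SE 0.12, adjusted p = 0.00667) without overlap. Kcnip4, an accessory subunit of these channels, was 0.59 in SHR (SE 0.13, adjusted p = 0.00156) and 0.59 in WKY (SE 0.12, adjusted p = 9.72e-04), without overlap in either strain. Its second tested probe set, 1370595_a_at, was 0.72 in SHR (adjusted p = 4.34e-04) and 0.39 in WKY (adjusted p = 0.0294). Its WKY value lost the threshold without any of PVN WKY arrays 1 or 2 or SON WKY arrays 2, 3 or 4, at 0.31 to 0.37, and that of 1369144_a_at in SHR without SON SHR array 3, at 0.34 (adjusted p = 0.0535). Kcnd2, the other tested pore subunit of this family, did not pass (0.02 in SHR and 0.15 in WKY).

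Kcnh1 read 6.97, 6.77, 7.18 and 6.97 in the SON and 6.16, 6.33, 6.24, 6.29 and 6.31 in the PVN of SHR. In WKY it read 7.42, 7.44, 7.28, 7.62 and 7.15 in the SON and 6.44, 6.40, 6.71, 6.43 and 6.38 in the PVN. The nuclei did not overlap, with differences of 0.71 (SE 0.11, adjusted p = 4.36e-05) in SHR and 0.91 (SE 0.10, adjusted p = 9.77e-07) in WKY. Kcna1, a Shaker-type subunit of low-threshold currents, was 0.84 in SHR (SE 0.37, adjusted p = 0.0928) and 1.00 in WKY (SE 0.35, adjusted p = 0.0373). The SHR value included PVN array 5 at 3.09, far below the other PVN arrays at 4.98 to 5.59. In WKY the Kcna1 adjusted p exceeded 0.05 when any 1 of PVN WKY arrays 3, 4 or 5 or SON WKY arrays 1, 2, 3 or 4 was left out, reaching at most 0.0872, with differences of 0.87 to 1.05.

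**Figure D4:**
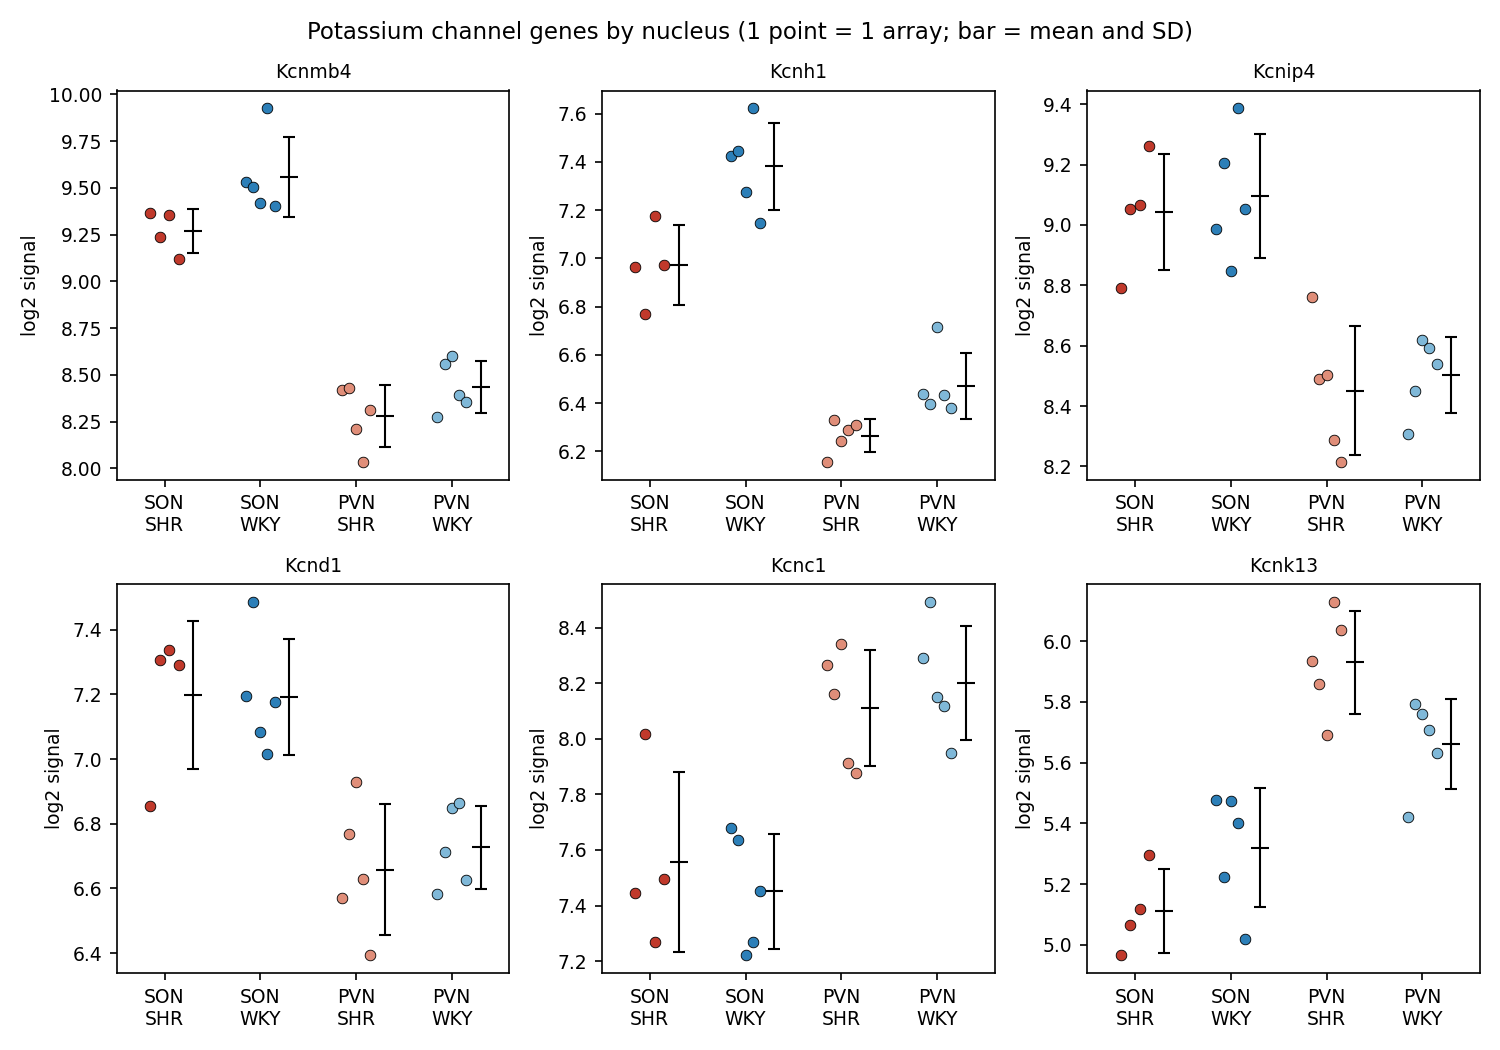
Log2 signal (y axis) on each array, by group (x axis), of 4 genes more abundant and 2 less abundant in the SON than in the PVN, with the mean and SD beside the points. Kcnmb4 and Kcnh1 form separate clusters by nucleus, and Kcnk13 is lower on every SON SHR array (4.97 to 5.30) than on any PVN SHR array (5.69 to 6.13).

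Less abundant in the SON of both strains were 4 genes. Kcnc1, a Shaw-type subunit that allows fast firing, read 7.45, 8.02, 7.27 and 7.50 in the SON and 8.27, 8.16, 8.34, 7.91 and 7.88 in the PVN of SHR. In WKY it read 7.68, 7.63, 7.22, 7.27 and 7.45 in the SON and 8.29, 8.49, 8.15, 8.12 and 7.95 in the PVN. SON array 2 of SHR alone reached the PVN range, and the differences were -0.55 (SE 0.15, adjusted p = 0.00901) in SHR and -0.75 (SE 0.14, adjusted p = 5.38e-04) in WKY. Kcng2, a subunit that is silent alone and modifies other channels, was -0.71 in SHR (SE 0.20, adjusted p = 0.0119) and -0.71 in WKY (SE 0.19, adjusted p = 0.00853), and without SON SHR array 1 the SHR value was -0.53 (adjusted p = 0.0602). Kcnj6 was -0.75 in SHR (SE 0.16, adjusted p = 0.00137, no overlap) and -0.45 in WKY (SE 0.15, adjusted p = 0.0303, overlapping through SON WKY array 2 at 6.67). Leaving out any of PVN WKY arrays 1 or 2 or SON WKY arrays 1, 3, 4 or 5 took the adjusted p of Kcnj6 in WKY above 0.05, to between 0.0536 and 0.0882, with differences of -0.38 to -0.45. The second tested Kcnj6 probe set, 1370704_at, did not pass, with -0.12 in SHR and 0.14 in WKY.

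Kcnk13 read 4.97, 5.06, 5.12 and 5.30 in the SON and 5.93, 5.86, 5.69, 6.13 and 6.04 in the PVN of SHR. In WKY the SON arrays read 5.48, 5.23, 5.47, 5.40 and 5.02 and the PVN arrays 5.42, 5.79, 5.76, 5.71 and 5.63. The nuclei were apart in SHR and overlapped in WKY, with differences of -0.82 in SHR (SE 0.12, adjusted p = 2.34e-05) and -0.34 in WKY (SE 0.11, adjusted p = 0.0269), and the test of that contrast is the interaction given above, which did not pass. In WKY the adjusted p rose to between 0.0554 and 0.0838, with differences of -0.27 to -0.33, when any of PVN WKY arrays 2, 3 or 4 or SON WKY arrays 2 or 5 was left out. Kcnk13 is known as a microglial channel in the rodent brain. Of 6 tested microglial markers 1 was higher in the SON of SHR and 1 lower in the SON of WKY, and the mean of the 9 listed genes was 6.08 to 6.63 in SON SHR, 5.53 to 6.37 in SON WKY, 6.00 to 6.36 in PVN SHR and 6.01 to 6.36 in PVN WKY. The part of microglia in the Kcnk13 values was not tested.

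Lower in the SON of SHR and not passing in WKY were 5 genes. Kcnj11 on probe set 1391007_s_at was -0.78 (SE 0.22, adjusted p = 0.0126) in SHR and -0.44 (adjusted p = 0.130) in WKY. Its other probe sets lay below the filter, were not tested, and overlapped widely between the nuclei of SHR. On 1369782_a_at the SHR arrays read 4.87 to 5.61 in the SON and 4.49 to 5.28 in the PVN. On 1387698_at they read 4.80 to 5.31 in the SON and 4.80 to 5.50 in the PVN. Kcna5, a Shaker-type delayed rectifier, was -0.51 (adjusted p = 0.00563) in SHR and -0.31 (adjusted p = 0.0622) in WKY. Kcnc4 was -0.47 (adjusted p = 0.0186) in SHR and -0.26 (adjusted p = 0.172) in WKY. Kcnip1 was -0.40 in SHR (SE 0.11, adjusted p = 0.00891), with SON arrays at 7.50, 7.81, 7.61 and 7.76 below PVN arrays at 8.40, 8.01, 7.96, 8.04 and 7.95, while in WKY the difference was 0.02. Kcnh2 was -0.40 in SHR (adjusted p = 0.0120, or 0.0555 and -0.32 without SON SHR array 1) and -0.13 in WKY. Other tested probe sets of Kcnip1 (1370781_a_at, 0.17 in SHR) and Kcnc4 (1391369_at, 0.19 in SHR) did not pass and had the opposite sign.

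Lower in the SON of WKY and not passing in SHR were 5 further genes. Kcnip3 was -0.67 in WKY (SE 0.20, adjusted p = 0.0178, no overlap) and -0.37 in SHR (adjusted p = 0.212). Kcnk2 was -0.65 in WKY (adjusted p = 0.0346) and -0.54 in SHR (adjusted p = 0.0912), and the related leak channel Kcnk4 was -0.65 (adjusted p = 0.0178) in WKY and -0.26 in SHR. Kcnq5, a subunit of the M current, was -0.55 in WKY (adjusted p = 0.0186) and -0.36 in SHR (adjusted p = 0.135), and Kcna6, a further Shaker-type subunit, was -0.49 (adjusted p = 0.0358) in WKY and -0.20 in SHR. Without SON WKY array 3 the WKY values of Kcnk2, Kcnk4, Kcnq5 and Kcna6 no longer passed, at -0.46, -0.50, -0.46 and -0.44 (adjusted p between 0.0534 and 0.103), and 10 genes passed in WKY in all. The same was so without PVN WKY arrays 1, 3 or 5 or SON WKY array 4 for Kcnk2 (-0.57 to -0.67), PVN WKY arrays 2 or 3 for Kcnk4 (-0.56 and -0.54), SON WKY array 4 for Kcnq5 (-0.48), and PVN WKY arrays 1, 2 or 3 or SON WKY array 5 for Kcna6 (-0.37 to -0.48). None of these differences between the strains was past the threshold of the interaction. With the methods' t-test Kcna5, Kcnc1, Kcnc4, Kcnd1, Kcng2, Kcnh2 and Kcnj11 did not pass in SHR (adjusted p between 0.0566 and 0.156), nor did Kcna6, Kcnj6, Kcnk2, Kcnk4, Kcnk13, Kcnq5 and the second Kcnip4 probe set in WKY (between 0.0623 and 0.133). Without the filter Kcna1, Kcna6, Kcnj6, Kcnk2 and the second Kcnip4 probe set did not pass in WKY (between 0.0523 and 0.0937).

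Of the 13 tested partner genes outside the Kcn symbols, Dpp6, Dpp10, Adam22 and Dlg4 were less abundant in the SON of both strains. In SHR 5 passed as lower and 1 as higher in the SON, where 15.7% of all probe sets were lower and 13.7% higher. In WKY 4 passed as lower and 0 as higher, where 13.7% of all probe sets were lower and 13.2% higher. Dlg4 is a synaptic scaffold protein that clusters Shaker-type channels. Dpp10, a relative of Dpp6, was -0.74 in SHR (adjusted p = 3.93e-05) and -0.98 in WKY (adjusted p = 5.63e-07), while Dpp6 was -0.60 (adjusted p = 6.91e-05) in SHR and -0.28 (adjusted p = 0.0229) in WKY. The axonal adhesion protein gene Cntn2 (-0.90, adjusted p = 0.00556) was lower and Abcc9, a sulphonylurea receptor (0.61, adjusted p = 0.00719), higher in the SON of SHR. In WKY they had the same signs without passing, Cntn2 at -0.56 (adjusted p = 0.0622) and Abcc9 at 0.40 (adjusted p = 0.0542). Cntn2 reached the filter only through its PVN means and Abcc9 only through its SON means. The tissue around the neurones also differed between the dissected nuclei. Of 8 meningeal and fibroblast markers 8 were higher in the SON in each strain, with medians of 3.65 in SHR and 3.11 in WKY and list means of 8.02 to 9.35 in SON SHR, 7.64 to 8.26 in SON WKY, 4.87 to 5.34 in PVN SHR and 4.85 to 5.04 in PVN WKY. Of 5 ependymal markers 5 were lower in the SON, with medians of -2.48 in SHR and -2.49 in WKY and list means of 4.18 to 4.80 in SON SHR, 4.52 to 4.84 in SON WKY, 7.90 to 8.21 in PVN SHR and 7.41 to 7.76 in PVN WKY. Mural cell markers were higher in the SON for 5 of 6 in SHR and 3 of 6 in WKY, endothelial markers for 3 of 7 in SHR and 4 of 7 in WKY, and astrocyte markers for 3 of 8 in each strain (Aldh1l1, Gfap and Aqp4). Dcn, Lum, Col1a1, Col1a2, Col3a1, Slc6a13, Pdgfrb, Tagln, Des and Pecam1 reached the filter only through SON means. Ak7, Dnah1, Rsph1 and Syt1 reached it only through PVN means, so for all these markers the filter selected on the contrast counted. The mural marker Cspg4 was not tested (4.31 in SON SHR, 4.54 in SON WKY, 4.64 in PVN SHR and 4.94 in PVN WKY). Of 8 oligodendrocyte markers 4 were higher in the SON of SHR, and in WKY 1 was lower and 0 higher. The 10 neuronal markers had medians of 0.03 in both strains, and some of them passed. Rbfox3 was lower in the SON (-1.16 in SHR, adjusted p = 3.13e-04, and -0.64 in WKY, adjusted p = 0.0228), Nefm was higher (0.40 in SHR and 0.37 in WKY), and Elavl4 was higher in WKY (0.28). The part of any of these cells in the potassium channel differences was not tested.

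The 37 genes tested in no comparison include several with a known part in these neurones. Their group means ranged from 1.91 to 5.26, 16 of them were at the floor on at least 1 array and 0 on every array. They comprised 15 of 31 voltage-gated alpha subunits, 4 of 11 accessory subunits, 4 of 7 calcium- and sodium-activated channels, 9 of 15 inward rectifiers and 5 of 11 two-pore-domain channels. Kcnn1, a small-conductance calcium-activated channel of the afterhyperpolarisation, averaged 3.15 ± 0.94 in SON SHR (SD, n = 4), 3.45 ± 1.00 in SON WKY, 2.91 ± 0.89 in PVN SHR and 2.57 ± 0.13 in PVN WKY (SD, n = 5 each). Kcnn3, of the same family, averaged 4.16 ± 0.14 in SON SHR, 4.65 ± 0.33 in SON WKY, 3.71 ± 0.63 in PVN SHR and 3.10 ± 1.16 in PVN WKY. It was 1.55 higher in the SON than in the PVN of WKY when no filter was set (adjusted p = 0.0224). Kcnq3 (4.32 to 4.96), Kcnj8 (4.20 to 4.73), Kcnj3 (4.95 to 5.26), Kcnj9 (1.99 to 3.51) and the glial Kcnj10 (2.78 to 3.27) had group means below the filter. Without the filter 0 of the 37 passed between strains, where 0.937% of all probe sets did in the SON and 0.776% in the PVN. Between nuclei 1 passed in SHR (Kcnq1, -1.15, adjusted p = 0.0486), where 15.9% of all probe sets did, and 3 in WKY (Kcnn3, Kcns3 at -0.91 and Kcnab3 at -0.76), where 14.5% did.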

How the data were processed

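The deposited values were intensities, MAS5 signals on a linear scale that the authors made from scanned arrays of biotin-labelled RNA, amplified in 1 linear round. The later GeneSpring steps of the methods were not used here. Of 31099 probe sets, 57 controls were left out. Arrays were scaled to a common median, signals below the 10th percentile (3.75) were set to it, and log2 was taken. Symbols came from the platform annotation, updated through the Entrez number (20758 probe sets), and 20826 probe sets had 1 symbol, 436 several and 9780 none. Of 97 Kcn symbols in the GRCr8 annotation, 75 were found, and the others were not analysed here.

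Strains were compared within each nucleus, and nuclei and the interaction in a fit of the 4 groups, with limma 3.58.1 in R 4.3.3 (lmFit, eBayes, two-sided, Benjamini-Hochberg over all probe sets tested). The procedure was tested on simulated data. Named are genes that passed (at most 10 each way per comparison), genes with a known part in firing or potassium buffering, genes whose probe sets disagreed and partner genes that passed. Some further genes are named as examples after their values were seen. Members, lists and tests were chosen with earlier results of these data known. The methods give 5 replicates and pooled nuclei per group, without saying that each array was a separate pool, so p-values measure the spread between arrays, which may be partly technical, and the number of arrays limits the precision. Alternatives covered scaling, log offset, filter, moderation, array weights, samples in the fit, the replicate block, the choice of probe set and each array left out. They also covered the methods' Welch t-test, without the present calls and the 2-fold cut-off of the paper. Plots were made in Python 3.11.15 with matplotlib 3.10.9.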

Additional observations from a re-analysis of the deposited data

Results flagged for a closer look

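Single arrays standing apart from the rest of their group were looked for in 28 probe sets and 112 groups of arrays, with Dixon's criterion, by which chance marks about 1 in 20 groups, and 10 were found. The farthest was Kcna1 on PVN SHR array 5, lowest at 3.09 with the next array at 4.98. Kcnq5 was highest on SON SHR array 2 (6.23, next 5.38) and lowest on PVN SHR array 4 (5.70, next 5.96). Kcnj6 was highest on SON WKY array 2 (6.67, next 6.06), and Kcnk4 lowest on SON WKY array 3 (4.15, next 4.82). Kcnmb4 was highest on SON WKY array 4 (9.93, next 9.53), and Kcnd1 lowest on SON SHR array 1 (6.86, next 7.29). On PVN WKY array 3 Kcnh1 (6.71, next 6.44) and Kcnj16 (8.18, next 7.97) were highest, and Kcnip1 was highest on PVN SHR array 1 (8.40, next 8.04).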

How the results depend on the processing

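Of 39 gene differences followed, 18 passed in every setting tried and 21 failed to pass in at least 1. Over 1137 values 1041 still passed, 96 did not and 0 reversed. Kcnip3 failed in both nuclei without the filter (adjusted p = 0.0958 in the PVN and 0.0652 in the SON) and with the methods' t-test (adjusted p = 0.225 in the PVN and 0.0980 in the SON). On representative probe sets 0 genes passed between strains in either nucleus without the filter, and with the methods' t-test and with the mean of all probe sets of a gene also 0. With the stricter filter 1 passed in the PVN and 5 in the SON, where the share of all probe sets called was 2.44% in the PVN (2.36% with the main filter) and 9.42% in the SON (3.62%). In the SON 5 passed with trended and robust moderation, 7 with array weights and 4 in the fit of the 4 groups, where over all probe sets 938, 1573 and 726 were called instead of 586. The cause was not tested. Leaving out 1 array gave 2 to 3 genes in the PVN, 1 to 3 in the SON (1 without SON SHR arrays 1, 2 or 4 or SON WKY arrays 1, 2 or 4), 13 to 18 between nuclei in SHR and 10 to 16 in WKY. Between nuclei the stricter filter left 8 in SHR and 9 in WKY (37.6% of all probe sets in SHR and 34.4% in WKY), the mean of all probe sets 8 in each strain, and the t-test 7 in SHR. The interaction gave 0 in 30 settings. The fit without both arrays that correlated least with their group, chosen after seeing the data, gave 2 in the PVN and 2 in the SON, 18 in SHR and 12 in WKY.

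The labels do not say whether same-numbered arrays came from the same animals, and correlations of their deviations from group means cannot decide it. Between same-numbered arrays of the same strain these correlations ranged from -0.00909 to 0.174. Between those of different strains, which cannot share animals, they ranged from -0.226 to 0.104. Even so, PVN SHR array 5 and SON SHR arrays 1 and 4 correlated most with the WKY array of the same number and nucleus. SON SHR arrays 1 and 2 correlated most with the PVN SHR array of the same number (0.174 and 0.103), while no SON WKY array did so in WKY. The main fits treated the arrays as unpaired. With the replicate number as a block 2 genes passed between strains in the PVN and 2 in the SON, 14 between nuclei in SHR and 16 in WKY, and 0 in the interaction. Detection is limited for the 37 genes below the filter, and 16 of them were at the floor on at least 1 array.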
